A study of Mus musculus with 8 samples.

Results

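The 10 genes described here are the immediate early and ERK feedback genes Egr1, Fos, Fosb, Jun, Junb, Jund, Atf3, Ier2, Dusp1 and Dusp6, out of 24369 gene symbols in the count table. They were listed by name as AP-1 and Egr factors and Dusp phosphatases. Jund and Dusp6 were picked for their levels across the EGFP fractions, so their values in the EGFP comparisons and within a single fraction are given as a description with no test. The other 8 were not said to be picked for their values, but the list was made with earlier results of these data known. All 10 passed the filter on low counts, which left 11394 genes for testing.

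The libraries came from wild-type mice carrying MC38-EGFP tumours. MC38, a colon carcinoma line of the mouse, expresses here enhanced green fluorescent protein (EGFP), so that a sorted dendritic cell can be scored for tumour-derived fluorescence. Flow-sorted conventional dendritic cells made up 4 groups of 2 libraries each: EGFP-positive cDC1, EGFP-negative cDC1, EGFP-positive cDC2 and EGFP-negative cDC2. cDC1 are the subset specialised in cross-presenting antigen to CD8 T cells, and cDC2 are best known for priming CD4 T cells. All 4 groups share the wild-type genotype, the tumour line and tumour as the tissue, and no drug is named for any of them. The age of the mice is not given in the sources used here, and the cell type field of the labels names colon cancer although the titles name cDC subsets. Whether replicates are separate animals is not stated, and p-values therefore cover the spread among these libraries alone, part or all of which may be technical.

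Immediate early genes are transcribed within minutes of a stimulus and need no new protein for it. Phosphorylated ERK, the last kinase of the Ras-Raf-MEK-ERK cascade, activates ternary complex factors that work with serum response factor at promoters such as those of Fos and Egr1, while stress kinases and CREB family factors feed into the same genes. Fos and Jun proteins pair into AP-1, and the Dusp proteins remove phosphate from MAP kinases, Dusp1 in the nucleus with p38 and JNK as preferred substrates and Dusp6 in the cytoplasm with ERK as its substrate. Tissue digestion and sorting are known to induce many of these genes in myeloid cells.

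Library totals ranged from 17869441 to 22195681 counts. The EGFP-positive cDC1 replicates agreed least, with a Pearson correlation of log2(CPM + 1) across genes of 0.629, against 0.850 in EGFP-negative cDC1, 0.875 in EGFP-positive cDC2 and 0.898 in EGFP-negative cDC2 (genes are not independent replicates). Levels are CPM, counts scaled to a common library size after TMM. All 10 cDC1 markers were detected in each cDC1 library and summed to 3420 to 7668 CPM there, against 379 to 923 CPM in cDC2 libraries. The 16 macrophage and monocyte markers summed to 28499 to 57648 CPM in cDC2. In cDC1 they summed to 523 and 13470 CPM in the EGFP-positive replicates, against 2389 and 3533 CPM in the EGFP-negative ones. Of genes with at least 100 counts in 1 EGFP-positive cDC1 replicate, 23.3% had 0 in the other, against 2.51% to 7.49% in the other groups. Each EGFP comparison in cDC1 rests on these 2 unlike libraries. Flt3 and Zbtb46, which define conventional dendritic cells, were at 67.2 to 208 and 10.1 to 37.1 CPM in cDC1 libraries, against 0 to 10.8 and 0 to 1.04 CPM in cDC2 libraries. The 9 cDC2 markers summed to 33.0 to 396 CPM in cDC1 and 906 to 949 CPM in cDC2. Sirpa, Itgam and Klf4 made up most of that sum in each cDC2 library, and the other markers of the list overlapped between the subsets. Mgl2 was highest in EGFP-negative cDC1 replicate 2, at 220 CPM, against 27.8 to 149 CPM in cDC2. Clec10a reached 82.9 CPM in EGFP-negative cDC1 replicate 1, against 21.1 to 102 CPM in cDC2. Itgax, shared by both subsets, was at 8.05 to 83.03 CPM in cDC1 and 51.9 to 82.6 CPM in cDC2. The 7 tumour epithelium markers summed to 0 to 20.8 CPM, with Krt8 and Cldn4 at 0 in all 8 libraries. The 8 stroma and endothelium markers, led by Sparc, summed to 807 CPM in EGFP-positive cDC1 replicate 1 and 182 CPM in EGFP-positive cDC2 replicate 2, against 10.7 to 22.8 CPM in the other 6 libraries. In bulk libraries, fewer cells expressing a gene and less RNA per cell cannot be told apart.

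Per kilobase of exon, the mean level over the 8 libraries was highest for Fos, at 560 ± 218 CPM per kb (SD, n = 8). Junb followed at 337 ± 117, Dusp1 at 250.5 ± 115, Atf3 at 129 ± 60.0, Ier2 at 81.7 ± 37.8 and Jun at 51.6 ± 71.2 CPM per kb. Fosb had 45.2 ± 27.4, Jund 35.0 ± 27.5, Dusp6 21.3 ± 19.3 and Egr1 20.0 ± 18.9 CPM per kb. Each gap between neighbours in this order was smaller than the SD of their paired difference over the libraries, so no adjacent pair was separated beyond its spread. Fos was above Junb in 7 of the 8 libraries, and Junb above Dusp1 likewise in 7, whereas Jun was above Fosb in 2, although its mean was higher.

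**Figure D1:**
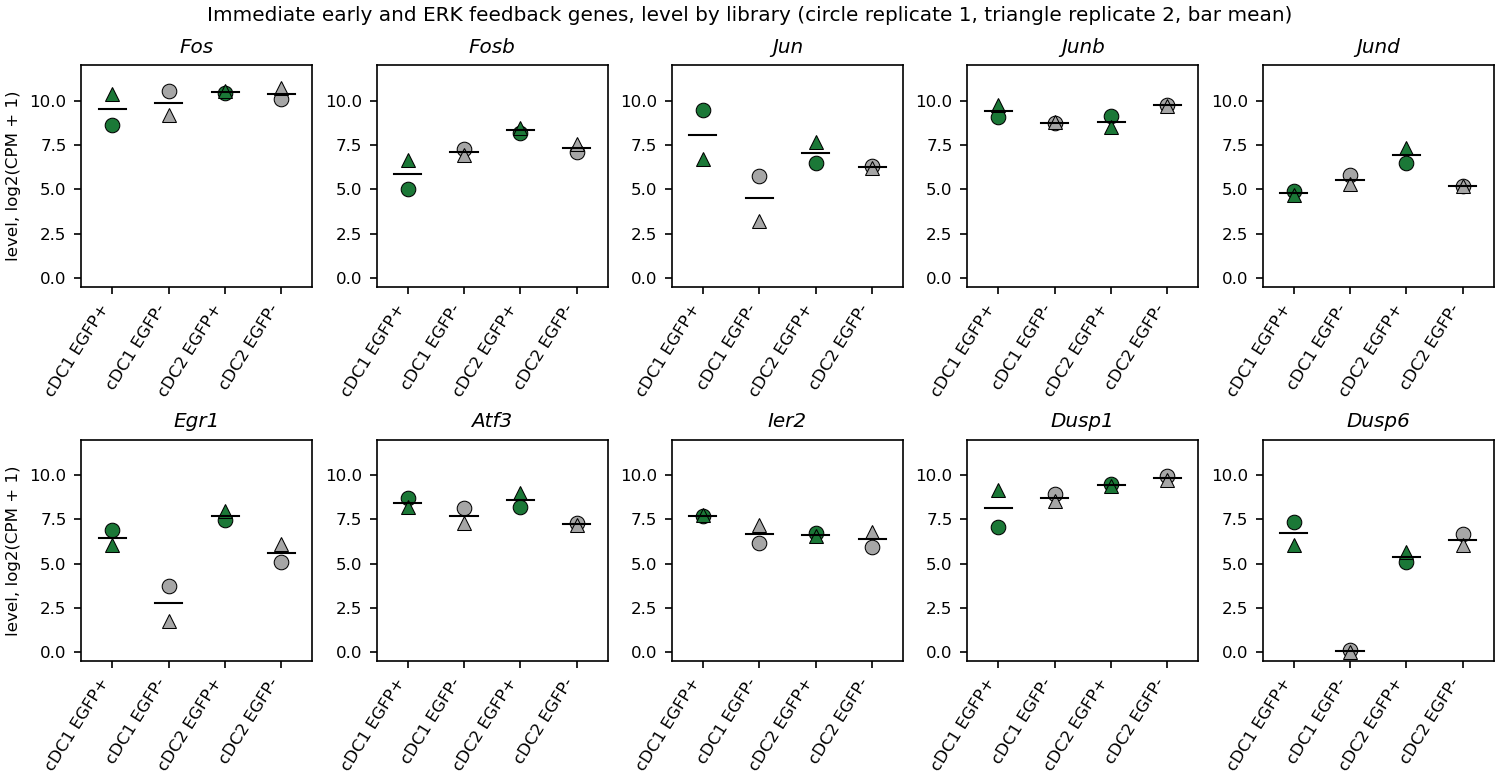
Level of each of the 10 genes as log2(CPM + 1) on the vertical axis, by group on the horizontal axis, with a circle for replicate 1, a triangle for replicate 2 and a bar at the mean (green, EGFP-positive; grey, EGFP-negative). Dusp6 lies near 0 in the EGFP-negative cDC1 libraries and above 5 in the other 6, and Egr1 is higher in the EGFP-positive than in the EGFP-negative fraction of each subset.

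Egr1, a zinc finger transcription factor (GRCm38 chr18:34859823-34864984, plus strand), was higher in the EGFP-positive libraries of both subsets. It stood at 116 and 64.2 CPM in EGFP-positive cDC1, against 12.5 and 2.38 CPM in EGFP-negative cDC1. In cDC2 it stood at 176 and 246 CPM in the EGFP-positive libraries, against 33.0 and 67.0 CPM in the EGFP-negative ones. The fractions did not overlap within either subset, although 1 EGFP-positive cDC1 library lay below the higher EGFP-negative cDC2 library. EGFP gave a log2 fold change of 3.60 ± 0.83 (SE) in cDC1 (adjusted p = 0.193 by edgeR's quasi-likelihood test) and 2.08 ± 0.78 in cDC2 (adjusted p = 1). Neither passed the threshold of an adjusted p under 0.05. Without replicate 2 of EGFP-positive cDC1 the adjusted p in cDC1 was 0.0377, and DESeq2 gave 0.000384. Between EGFP-negative cDC1 and EGFP-negative cDC2, the Egr1 difference was -2.75 ± 0.80 on the log2 scale (adjusted p = 0.303 by edgeR, 0.0221 by DESeq2).

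Fos, the founding AP-1 partner of Jun (chr12:85473890-85477273, plus strand), overlapped between the EGFP fractions of both subsets. It had 397 and 1343 CPM in EGFP-positive cDC1, against 1509 and 577 CPM in EGFP-negative cDC1. It had 1378 and 1479 CPM in EGFP-positive cDC2, against 1097 and 1658 CPM in EGFP-negative cDC2. Both EGFP-positive cDC1 libraries lay below both EGFP-positive cDC2 libraries, 1343 against 1378 CPM at the nearest, and the replicates of each cDC1 group were further apart than the group means. The log2 fold change for EGFP was -0.26 ± 0.63 in cDC1 and 0.05 ± 0.63 in cDC2 (adjusted p = 0.940 and 1, edgeR). Between the subsets in the EGFP-positive fraction it was -0.72 ± 0.64 (adjusted p = 0.627).

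Fosb, a paralogue of Fos that is induced in the same way (chr7:19302696-19310051, minus strand), differed most between the subsets in the EGFP-positive fraction. It had 31.9 and 98.3 CPM in EGFP-positive cDC1, against 288 and 352 CPM in EGFP-positive cDC2. The EGFP-negative libraries had 153 and 122 CPM in cDC1, against 135 and 189 CPM in cDC2. EGFP-positive cDC1 lay below every other library and EGFP-positive cDC2 above every other one, while the EGFP-negative libraries overlapped between subsets. The log2 fold change of cDC1 over cDC2 was -2.30 ± 0.54 in the EGFP-positive fraction (adjusted p = 0.127, edgeR) and -0.24 ± 0.52 in the EGFP-negative fraction (adjusted p = 0.994). The EGFP effect was -1.08 ± 0.52 in cDC1 and 0.98 ± 0.52 in cDC2, a difference of -2.06 ± 0.74 between subsets (adjusted p = 0.428, edgeR interaction term). DESeq2 called the contrast in the EGFP-positive fraction with an adjusted p of 0.00239. Leaving out either EGFP-positive cDC1 library also gave a call there (adjusted p = 0.0441 without replicate 1 and 0.00476 without replicate 2, edgeR), and leaving out replicate 2 gave one for the interaction (0.0153).

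RefSeq promoters of GRCm38.p6, from 250 bases before to 50 after the annotated start, were at hand for 8 of the 10 genes and not for Egr1 and Ier2. They were searched on both strands for the CArG box of serum response factor, the cyclic AMP response element TGACGTCA, the AP-1 element TGANTCA and the Egr site GCGNGGGCG, and no match overlapped one of another motif. The Fosb promoter (chr7:19309996-19310295, minus strand) is shown because it held an Egr site, 50 bases before the start and printed in capitals.

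Fosb: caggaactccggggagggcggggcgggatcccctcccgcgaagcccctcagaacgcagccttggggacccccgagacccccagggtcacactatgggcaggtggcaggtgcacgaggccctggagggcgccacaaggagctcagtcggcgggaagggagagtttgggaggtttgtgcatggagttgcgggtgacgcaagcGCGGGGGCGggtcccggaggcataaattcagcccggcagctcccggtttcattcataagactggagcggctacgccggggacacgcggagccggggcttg

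Of 32851 RefSeq promoters of this length, 5.55% held such a site, 1.63% a CArG box, 1.79% the cyclic AMP response element and 7.81% the AP-1 element. The Fos, Jun, Junb, Jund, Atf3 and Dusp6 windows held none of the 4 motifs. That says only that these letters are not in these windows. The start that RefSeq gives for Jund lies upstream of the start of the gene in GENCODE M21, so its window may not be the promoter in use. For Atf3 and Dusp1 the RefSeq start lies inside the GENCODE M21 gene span, downstream of where the span begins on the minus strand.

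Jun, the canonical partner of Fos and a substrate of JNK (chr4:95049034-95052222, minus strand, a gene of 1 exon), was highest in the EGFP-positive libraries of both subsets. It had 710 and 103 CPM in EGFP-positive cDC1, against 53.8 and 8.30 CPM in EGFP-negative cDC1. In cDC2 it had 87.8 and 204 CPM in the EGFP-positive libraries, against 78.3 and 71.2 CPM in the EGFP-negative ones. All 4 EGFP-positive libraries lay above all 4 EGFP-negative ones, but 1 library carried most of the difference in cDC1. For EGFP it was a log2 fold change of 3.71 ± 1.14 in cDC1 (adjusted p = 0.285, edgeR) and 0.96 ± 1.04 in cDC2 (adjusted p = 1), and the interaction of 2.75 ± 1.48 did not pass either (adjusted p = 0.541). Without EGFP-positive cDC1 replicate 1 the change in cDC1 was 1.73 (adjusted p = 0.375), and without replicate 2 it was 4.52 (adjusted p = 0.0454). DESeq2 called Jun in cDC1 with an adjusted p of 0.00538.

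The libraries with the most Jun, EGFP-positive cDC1 replicate 1 and EGFP-positive cDC2 replicate 2, were also those with the highest summed stroma and endothelium markers. Those sums were 807 and 22.5 CPM in EGFP-positive cDC1, against 15.2 and 10.7 CPM in EGFP-negative cDC1, and 18.8 and 182 CPM in EGFP-positive cDC2, against 22.8 and 20.0 CPM in EGFP-negative cDC2. Sparc, Col3a1 and Col1a2 made up most of the sum in both libraries, at 674, 90.8 and 40.7 CPM and at 126, 24.1 and 19.2 CPM. The other markers did not follow Jun. Dcn and the endothelial Pecam1, Cdh5 and Kdr were at 0 in EGFP-positive cDC1 replicate 1, and Col1a1 was at 1.23 CPM. Cyr61, a matricellular immediate early gene typical of stromal cells, followed the same libraries, with 177 and 30.2 CPM in those 2 and at most 0.269 CPM elsewhere. The source of these transcripts and the part of RNA from other cells in the Jun values were not tested.

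**Figure D2:**
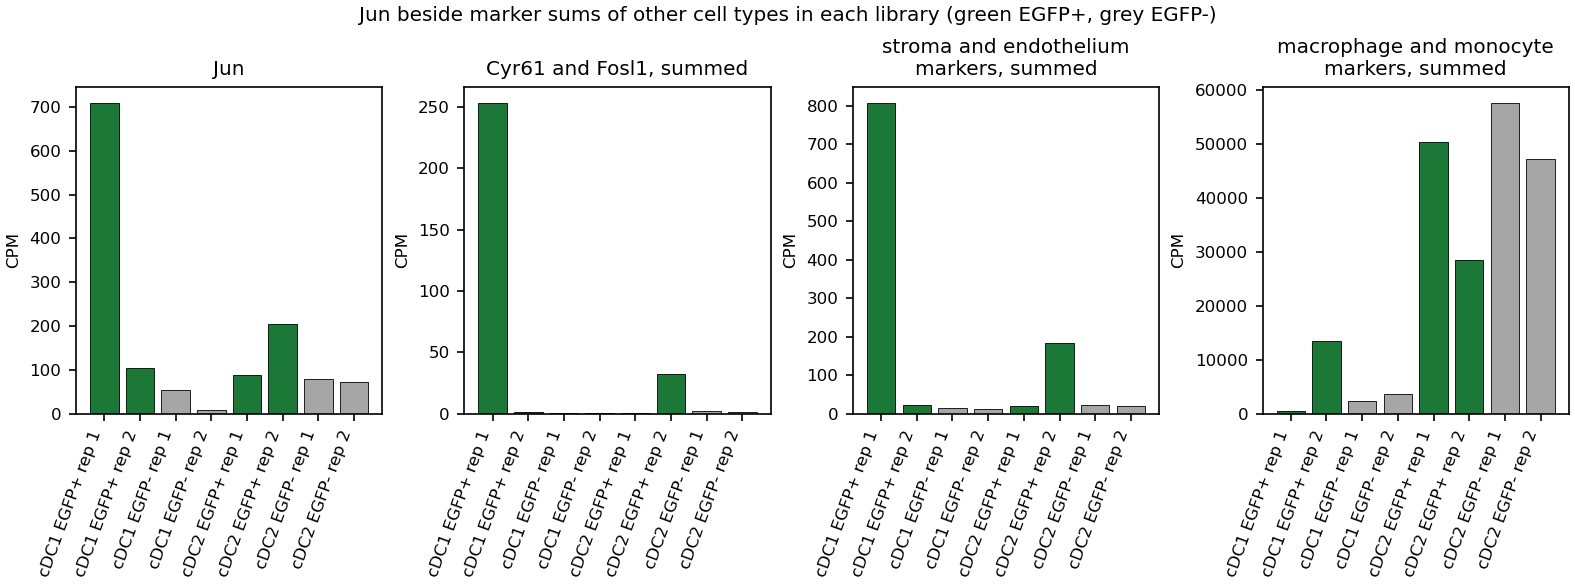
Jun, the sum of Cyr61 and Fosl1, the summed stroma and endothelium markers and the summed macrophage and monocyte markers, each in CPM on a linear axis from 0, with 1 bar per library (green, EGFP-positive; grey, EGFP-negative). The 2 tallest Jun bars, 710 and 204 CPM, stand in the libraries with the tallest stroma bars, 807 and 182 CPM.

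Junb, which in many settings restrains Jun activity and is abundant in myeloid cells (chr8:84974484-84978718, minus strand), had opposite directions with EGFP in the subsets, short of the threshold. It had 535 and 859 CPM in EGFP-positive cDC1, against 429 and 440 CPM in EGFP-negative cDC1. It had 552 and 359 CPM in EGFP-positive cDC2, against 861 and 840 CPM in EGFP-negative cDC2. Both EGFP-positive cDC1 libraries were above, and both EGFP-positive cDC2 libraries below, their EGFP-negative counterparts. The log2 fold change for EGFP was 0.68 ± 0.34 in cDC1 (adjusted p = 0.413, edgeR) and -0.90 ± 0.34 in cDC2 (adjusted p = 1). The difference between those effects was 1.58 ± 0.48 (adjusted p = 0.411 by edgeR, 0.0358 by DESeq2), so the opposite directions did not pass the edgeR threshold. In the EGFP-negative fraction Junb was at a log2 fold change of -0.97 ± 0.34 in cDC1 relative to cDC2 (adjusted p = 0.437).

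Jund, the constitutively expressed member of the family (chr8:70698949-70700616, plus strand), was chosen for its pattern with EGFP. It had 28.7 and 25.0 CPM in EGFP-positive cDC1, against 55.9 and 37.7 CPM in EGFP-negative cDC1. It had 89.8 and 159 CPM in EGFP-positive cDC2, against 34.8 and 35.3 CPM in EGFP-negative cDC2. The fractions did not overlap in either subset, with EGFP-positive cDC2 highest and EGFP-positive cDC1 lowest of the 4 groups. The log2 ratio of mean CPM for EGFP was -0.80 in cDC1 and 1.83 in cDC2. Over both fractions Jund averaged 36.8 ± 13.8 CPM in cDC1 and 79.8 ± 59.0 CPM in cDC2 (SD, n = 4 each). The log2 fold change was -0.90 ± 0.59 (adjusted p = 0.590, edgeR). Only the EGFP-positive libraries, part of the pattern Jund was picked for, ran lower in cDC1, averaging 26.8 against 125 CPM in cDC2. The EGFP-negative ones averaged 46.8 CPM in cDC1 and 35.1 CPM in cDC2, so that contrast is no independent result. An antisense gene, Gm11175, shares 877 of the 1668 exon bases of Jund, and without strand information its reads cannot be told apart from those of Jund.

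Among the Jun family, Junb took the largest share of the summed CPM per kb in all 8 libraries, from 55.2% to 91.4%. Jun took 41.6% and 6.18% in EGFP-positive cDC1, against 5.86% and 0.970% in EGFP-negative cDC1, and 7.12% and 17.9% in EGFP-positive cDC2, against 4.70% and 4.40% in EGFP-negative cDC2. Jund took 3.21% and 2.87% in EGFP-positive cDC1, against 11.6% and 8.43% in EGFP-negative cDC1, and 13.9% and 26.7% in EGFP-positive cDC2, against 4.002% and 4.17% in EGFP-negative cDC2. Junb had its lowest shares in 2 libraries. Jun made up most of the remainder in EGFP-positive cDC1 replicate 1, and Jund together with Jun made it up in EGFP-positive cDC2 replicate 2.

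Among the Fos family, Fos made up 78.9% to 95.1% of the summed CPM per kb and Fosb 3.54% to 11.5%. Fosl1, the Fos-related antigen of proliferating and stromal cells, made up 17.1% in EGFP-positive cDC1 replicate 1 and at most 0.163% in every other library. Fosl1 shares 1163 exon bases with the antisense gene Ccdc85b, so its reads are uncertain. Fosl2 made up 0.398% to 3.69%.

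**Figure D3:**
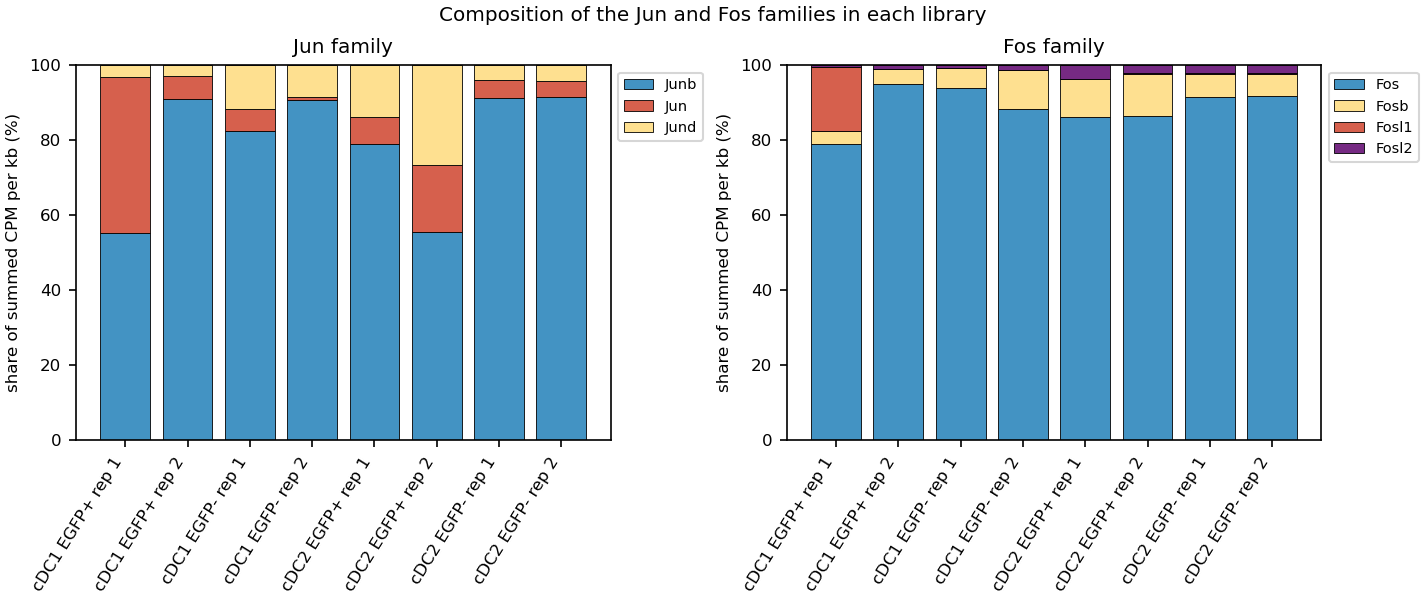
Share of the summed CPM per kb, in percent, taken by each Jun family member (left) and each Fos family member (right), with 1 stacked bar per library on the horizontal axis. Junb and Fos are the largest parts of every bar, and EGFP-positive cDC1 replicate 1 stands apart with a Jun share of 41.6% and a Fosl1 share of 17.1%.

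Atf3, a stress-induced factor of the ATF/CREB family that represses inflammatory genes in macrophages (chr1:191170296-191218039, minus strand), was higher with EGFP in both subsets. It had 411 and 286 CPM in EGFP-positive cDC1, against 279 and 155 CPM in EGFP-negative cDC1. It had 295 and 504 CPM in EGFP-positive cDC2, against 155 and 145 CPM in EGFP-negative cDC2. All 4 EGFP-positive libraries lay above all 4 EGFP-negative ones, by the narrow margin of 286 against 279 CPM in cDC1. The EGFP effect was a log2 fold change of 0.68 ± 0.42 in cDC1 (adjusted p = 0.471, edgeR) and 1.42 ± 0.42 in cDC2 (adjusted p = 1).

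Ier2, a small nuclear protein induced by growth factors (chr8:84661331-84662852, minus strand, a gene of 1 exon), was highest in EGFP-positive cDC1. It had 205 and 212 CPM in EGFP-positive cDC1, against 69.7 and 143 CPM in EGFP-negative cDC1. It had 103 and 91.6 CPM in EGFP-positive cDC2, against 61.3 and 109 CPM in EGFP-negative cDC2. The fractions were separate in cDC1 and overlapped in cDC2. Ier2 was at a log2 fold change of 1.10 ± 0.45 in cDC1 over cDC2 in the EGFP-positive fraction (adjusted p = 0.299, edgeR) and of 0.97 ± 0.45 for EGFP in cDC1 (adjusted p = 0.403).

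Dusp1, the nuclear MAP kinase phosphatase also known as MKP-1 (chr17:26505590-26562128, minus strand), stood lower in every cDC1 library than in any cDC2 library. It had 132 and 573 CPM in EGFP-positive cDC1 and 476 and 371 CPM in EGFP-negative cDC1, against 709 and 659 CPM in EGFP-positive cDC2 and 1001 and 835 CPM in EGFP-negative cDC2. The highest cDC1 library, at 573 CPM, lay below the lowest cDC2 library, at 659 CPM, which makes Dusp1 the one member whose 4 cDC1 and 4 cDC2 libraries did not overlap. The means were 388 ± 190 CPM in cDC1 and 801 ± 152 CPM in cDC2 (SD, n = 4 each), a log2 fold change of -1.04 ± 0.40 (adjusted p = 0.303, edgeR). The call depended on the tool, since voom with library quality weights gave an adjusted p of 0.0165. Without replicate 2 of EGFP-positive cDC1, edgeR called both Dusp1 and Fosb lower for EGFP in cDC1 and lower in cDC1 than in cDC2 in the EGFP-positive fraction. The macrophage and monocyte markers also summed higher in all 4 cDC2 libraries, and their part in the Dusp1 difference was not tested. The RefSeq promoter of Dusp1 (chr17:26508423-26508722, minus strand) is shown because it held a cyclic AMP response element. That element lies 143 bases before the RefSeq start and is printed in capitals.

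Dusp1: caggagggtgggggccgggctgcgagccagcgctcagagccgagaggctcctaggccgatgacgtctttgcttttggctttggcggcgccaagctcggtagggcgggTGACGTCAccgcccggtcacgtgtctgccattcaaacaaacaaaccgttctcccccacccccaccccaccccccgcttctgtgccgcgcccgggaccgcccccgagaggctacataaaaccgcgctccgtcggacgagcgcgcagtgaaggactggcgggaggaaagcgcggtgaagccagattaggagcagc

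Dusp6, the cytoplasmic ERK phosphatase and a standard transcriptional readout of ERK activity (chr10:99263231-99267489, plus strand), was chosen for its pattern with EGFP and had the widest range of the 10 genes on the log2(CPM + 1) scale. Its raw counts were 3726 and 940 in EGFP-positive cDC1, against 2 and 0 in EGFP-negative cDC1. They were 627 and 1013 in EGFP-positive cDC2, against 1853 and 1464 in EGFP-negative cDC2. EGFP-negative cDC1 thus stood apart from the other 3 groups, where the lowest library had 627 counts. In CPM these were 163 and 66.0 in EGFP-positive cDC1, against 0.0935 and 0 in EGFP-negative cDC1, and 32.6 and 50.2 in EGFP-positive cDC2, against 99.9 and 65.2 in EGFP-negative cDC2. A count of 0 allows up to 3 counts, or 0.140 CPM in that EGFP-negative cDC1 library. Summed over 2 libraries, EGFP-positive over EGFP-negative cDC1 was 4666 against 2 counts, a ratio of 2695 with an exact 95% counting interval of 746 to 22257. That interval covers counting error only and is no test, since Dusp6 was picked for this difference and over all genes the replicates of both groups differed by far more than counting error. In cDC1 the log2 ratio of mean CPM was 11.26, and in cDC2 the direction was the opposite, with a log2 ratio of mean CPM of -0.995.

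Over both fractions the cDC1 and cDC2 libraries overlapped in Dusp6, since cDC1 held both the highest and the lowest library. The means were 57.3 ± 77.1 CPM in cDC1 and 62.0 ± 28.6 CPM in cDC2 (SD, n = 4 each), with a log2 fold change of -3.77 ± 4.61 (adjusted p = 0.828, edgeR). Voom with library quality weights called Dusp6 lower in cDC1 there, but only the 2 EGFP-negative cDC1 libraries, which hold the values it was picked for, lay below the cDC2 range, so that call is no independent result. The window around its start (chr10:99262981-99263280, plus strand) is shown because of that range, and no base is in capitals because it held none of the 4 motifs.

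Dusp6: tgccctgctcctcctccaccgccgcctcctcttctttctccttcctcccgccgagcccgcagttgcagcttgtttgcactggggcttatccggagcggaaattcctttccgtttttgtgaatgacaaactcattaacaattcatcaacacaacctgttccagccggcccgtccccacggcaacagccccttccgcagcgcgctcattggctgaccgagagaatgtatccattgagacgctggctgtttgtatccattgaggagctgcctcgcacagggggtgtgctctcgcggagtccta

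The genes whose log2(CPM + 1) over the 8 libraries was most like that of Dusp6, among 6065 genes with a mean of at least 10 CPM, were Wls (Pearson r = 0.986), Itga5 (0.977), Slc12a4 (0.976), Mlkl (0.967) and Ptgs1 (0.967). By rank (Spearman) the coefficients were 0.738, 0.929, 0.810, 0.881 and 0.929 in that order. Each of these genes was lowest in the EGFP-negative cDC1 libraries, the pattern Dusp6 was picked for. Wls, a carrier needed for Wnt secretion, had 57.1 and 26.7 CPM in EGFP-positive cDC1, against 0.0935 and 0.0466 CPM in EGFP-negative cDC1, and 26.9 to 44.0 CPM in cDC2. Mlkl and Ptgs1 were likewise at most 0.795 CPM in EGFP-negative cDC1. The genes most like Jund were Wbp11 (0.967), Hspe1 (0.955), Hsp90aa1 (0.939), Hint1 (0.938) and Rad21 (0.937), which include 2 members of the heat shock list. Hsp90aa1, a cytosolic chaperone, had 355 and 385 CPM in EGFP-positive cDC1, against 457 and 413 CPM in EGFP-negative cDC1, and 668 and 1337 CPM in EGFP-positive cDC2, against 393 and 508 CPM in EGFP-negative cDC2. These coefficients rest on the same 8 libraries that were used to pick Jund and Dusp6, and the compared genes share libraries and depth.

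**Figure D4:**
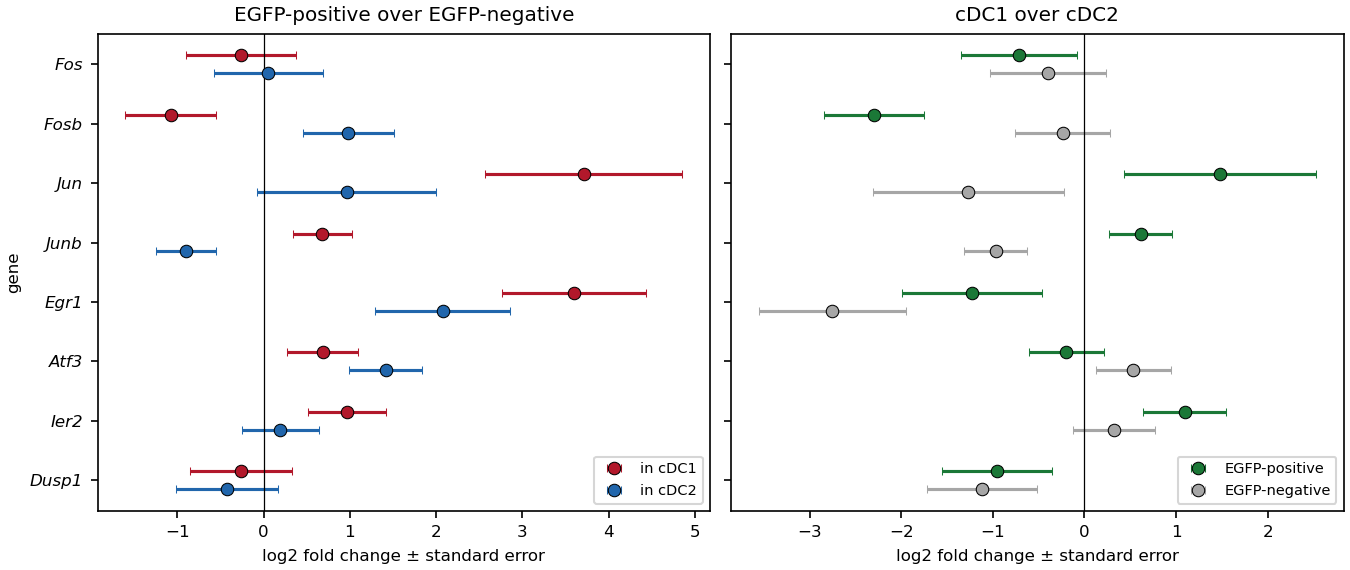
Log2 fold changes from edgeR for the 8 genes not chosen by EGFP pattern, EGFP-positive over EGFP-negative on the left (red, in cDC1; blue, in cDC2) and cDC1 over cDC2 on the right (green, EGFP-positive; grey, EGFP-negative). Error bars are standard errors derived from the F statistic. Egr1 lies at 3.60 in cDC1 and 2.08 in cDC2, whereas Fosb and Junb lie on opposite sides of 0 in the 2 subsets.

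Contrasts that use the same group share its libraries, so their values are set side by side only. The members were listed with earlier results of these data known, so their counts and medians beside all genes are a description. With 2 libraries a group, edgeR called none of the 8 testable members for EGFP in cDC1, where it called 0% of all genes tested. At an unadjusted p under 0.05 there were 2 members, Egr1 and Jun, against 12.7% of all genes, and DESeq2, which called 11.6% of all genes, called both while voom called 0. In the fit without replicate 2 of EGFP-positive cDC1, which called Egr1, Jun, Fosb and Dusp1, 8.41% of all genes were called. Groups without overlap were found for 6 of the 8, with 5 higher (Egr1, Jun, Junb, Atf3 and Ier2) and 1 lower (Fosb), against 35.5% of all genes, 11.5% higher and 24% lower. The median log2 fold change of the 8 was 0.68, against -0.04 for all genes tested. For EGFP in cDC2, edgeR, DESeq2 and voom called 0 of the 8, against 0% of all genes by edgeR and 0.965% by DESeq2. Egr1, Junb and Atf3 were under an unadjusted p of 0.05, against 2.63% of genes. There 6 of the 8 did not overlap, 4 higher (Egr1, Fosb, Jun and Atf3) and 2 lower (Junb and Dusp1), against 41.7% of all genes, 22.6% higher and 19.2% lower, and the median was 0.58 against 0.08.

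Taking EGFP over both subsets, a contrast added after the values were seen, edgeR called 0 of the 8 members and 0% of all genes, DESeq2 called Egr1 and 1.61% of all genes, and voom called 0 members. At an unadjusted p under 0.05 were Egr1, Jun and Atf3, against 5.22% of genes. Their log2 fold changes were 2.83 ± 0.60 for Egr1, 2.34 ± 0.96 for Jun and 1.05 ± 0.32 for Atf3, each with an adjusted p of 0.951 by edgeR. Jun and Atf3 did not overlap between the 4 EGFP-positive and the 4 EGFP-negative libraries, both higher, against 0.965% of all genes higher and 2.97% in either direction. The heat shock genes, which cell handling can induce, summed to 5966 and 5144 CPM in EGFP-positive cDC1, against 5458 and 3867 CPM in EGFP-negative cDC1, and 4566 and 6736 CPM in EGFP-positive cDC2, against 3721 and 4178 CPM in EGFP-negative cDC2. Hspa8 and Hsp90ab1 made up most of each sum. Hspa1a had 57.4 and 68.4 CPM in EGFP-positive cDC1, against 128 and 4.66 CPM in EGFP-negative cDC1. In cDC2 it had 71.3 and 74.5 CPM, against 3.93 and 19.1 CPM. The median log2 fold change of the 10 heat shock genes over both subsets was 0.58, against -0.05 for all genes. It was 0.13 against -0.04 in cDC1, and 0.72 against 0.08 in cDC2. The part of cell handling in the values of Egr1, Jun and Atf3 was not tested.

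Between the subsets, edgeR called 0 of the 8 members in the EGFP-positive fraction, against 0.228% of all genes, and 0 of the 8 in the EGFP-negative fraction, against 0.36% of all genes. DESeq2 called Fosb in the EGFP-positive fraction, where it called 13.9% of all genes, and Egr1 in the EGFP-negative fraction, where it called 7.35%, and voom called 0 members in both. The fits without replicate 1 and without replicate 2 of EGFP-positive cDC1 called 6.83% and 10.2% of all genes in the EGFP-positive fraction, and that without replicate 2 called 5.35% for the interaction. At an unadjusted p under 0.05 were Fosb and Ier2 in the EGFP-positive fraction, against 15.9% of genes, and Egr1 and Junb in the EGFP-negative fraction, against 9.58%. In the EGFP-positive fraction 5 of the 8 did not overlap, 1 higher (Ier2) and 4 lower (Egr1, Fos, Fosb and Dusp1), against 46.9% of all genes, 13.7% higher and 33.2% lower. In the EGFP-negative fraction it was also 5, with 1 higher (Atf3) and 4 lower (Egr1, Jun, Junb and Dusp1), against 48.4% of all genes, 21.9% higher and 26.5% lower. The median log2 fold change of the 8 was -0.46, against -0.30 for all genes, in the EGFP-positive fraction and -0.69, against -0.04, in the EGFP-negative one. Over both fractions edgeR called 0 of the 10 members, against 1.32% of all genes, with Egr1, Fosb and Dusp1 under an unadjusted p of 0.05, against 13.5%. DESeq2 called Egr1 and 10.2% of all genes there, and voom called Dusp1, Dusp6 and 7.65% of all genes. Dusp1 was the only one of the 10 without overlap, lower in cDC1, against 8.56% of all genes lower, 3.96% higher and 12.5% in either direction. For the interaction edgeR called 0 of the 8 members and 0% of all genes, with Fosb and Junb under an unadjusted p of 0.05, against 10.4% of genes. DESeq2 called Junb and 6.27% of all genes for it, and voom called 0 members.

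Among 30 other immediate early genes tested, Egr2 and Klf4 were lower in cDC1 over both fractions and none was higher, against 0.5% of all genes called lower and 0.816% called higher. Egr2, a paralogue of Egr1, averaged 30.8 ± 10.8 CPM in cDC1 and 119 ± 25.2 CPM in cDC2 (SD, n = 4 each), a log2 fold change of -1.95 ± 0.35 (adjusted p = 0.0337, edgeR). Klf4, a zinc finger factor of monocytes and of part of the cDC2, averaged 33.0 ± 24.9 CPM in cDC1 and 151 ± 68.5 CPM in cDC2, at -2.27 ± 0.36 (adjusted p = 0.0197), and is itself on the list of cDC2 markers. The macrophage and monocyte markers, 523 to 13470 CPM in cDC1 and 28499 to 57648 CPM in cDC2, were higher in the same libraries, and their part in both genes was not tested. Of the 8 fits that each left out 1 library, Egr2 kept its call in 2, those without an EGFP-positive cDC1 library, and Klf4 in 4, those and the fits without replicate 1 of either cDC2 group. Ier3, an ERK-induced survival gene, was not called, with 58.8 ± 34.5 CPM in EGFP-negative cDC1 and 954 ± 61.7 CPM in EGFP-negative cDC2 (SD, n = 2 each, adjusted p = 0.0651).

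Of 15 ERK feedback genes tested and 22 genes of the ERK cascade, edgeR called none in any of the 7 contrasts. DESeq2 called up to 14 genes in a contrast over these lists and the other immediate early genes. That was between the subsets in the EGFP-positive fraction, where DESeq2 called 13.9% of all genes. At an unadjusted p under 0.05, 3 ERK feedback and 3 cascade genes were found for EGFP in cDC1, against 12.7% of all genes, and 0 of either for EGFP in cDC2 (2.63%) or over both subsets (5.22%). Between the subsets there were 3 and 4 in the EGFP-positive fraction (15.9% of all genes), 3 and 3 in the EGFP-negative fraction (9.58%), 3 and 4 over both (13.5%) and, for the interaction, 1 and 1 (10.4%). For EGFP in cDC1, 11 of the 15 ERK feedback genes tested had a positive log2 fold change, a count with no share over all genes beside it. The median of the 15 was 1.33, against -0.04 for all genes. Some of these signs rested on 1 EGFP-positive library. Dusp10 had 75.2 and 12.3 CPM in EGFP-positive cDC1, against 3.22 and 12.8 CPM in EGFP-negative cDC1. Errfi1 had 144 and 30.6 CPM, against 38.7 and 54.3 CPM. Dusp5 rested on replicate 2 instead, with 34.9 and 107 CPM, against 48.4 and 42.4 CPM. Groups without overlap were found for 2 higher (Dusp4 and Dusp7) and 1 lower (Etv5), against 11.5% of all genes higher and 24% lower. For Dusp7 the nearest libraries had 0.1404 and 0.1398 CPM, no more than 3 counts each. Etv5, an ETS factor induced by ERK, had 0.0438 and 0 CPM in EGFP-positive cDC1, against 5.14 and 10.3 CPM in EGFP-negative cDC1. Etv5 thus ran in the reverse of the direction of Dusp6, which was picked for its pattern, in the same libraries. In cDC2 Etv5 had 30.1 and 17.7 CPM in the EGFP-positive libraries, against 19.1 and 17.0 CPM in the EGFP-negative ones. Etv1, a related factor, had at most 0.0467 CPM in the cDC1 libraries, against 9.68 and 19.2 CPM in EGFP-positive cDC2 and 5.87 and 9.17 CPM in EGFP-negative cDC2 (adjusted p = 0.0646 over both fractions, edgeR). Spry1 and Egr4 had 0 counts in all 8 libraries, and Spry4 and Etv4, with at most 59 and 215 counts in a library, did not pass the filter.

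Of 15 other AP-1 partners tested, Batf3 was higher in cDC1 over both fractions and none was lower, against 0.816% of all genes called higher. Batf3, the factor on which cDC1 development depends and a marker on the cDC1 list, had 16.3 and 20.7 CPM in EGFP-positive cDC1 and 71.7 and 66.7 CPM in EGFP-negative cDC1, against 4.06 and 1.19 CPM in EGFP-positive cDC2 and 1.83 and 3.25 CPM in EGFP-negative cDC2. The log2 fold change of cDC1 over cDC2 was 3.79 ± 0.74 (adjusted p = 0.0424, edgeR). Of the 8 fits that each left out 1 library, Batf3 kept its call in 3. Atf4, the factor of the integrated stress response, had 411 and 108 CPM in EGFP-positive cDC1, against 138 and 86.4 CPM in EGFP-negative cDC1, and 207 and 289 CPM in EGFP-positive cDC2, against 72.4 and 66.2 CPM in EGFP-negative cDC2. It was not called for EGFP in either subset (adjusted p = 0.411 in cDC1 and 1 in cDC2).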

How the data were processed

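RNA of sorted cells was sequenced after a low-input cDNA protocol, per the labels' protocols, in 8 libraries, 2 for each of 4 groups taken from the titles. Trimmomatic 0.39, STAR 2.7.5c, Cufflinks 2.2.1 and mm10 are named in the submitters' processing notes. For the read counter, the annotation and strandedness, a source is not given in the sources used here. Values in the deposited table are the authors' raw read counts, whole numbers for 24369 symbols, and 0 of its columns were left without a sample.

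The members and gene lists were chosen with earlier results of these data known. Tests used edgeR 4.0.16 under R 4.3.3 (low-count filter filterByExpr, TMM scaling, robust glmQLFit, glmQLFTest) with Benjamini-Hochberg adjustment over 11394 genes and a threshold of 0.05. Contrasts within a fraction or subset and the interaction came from a model with 1 mean per group, and those over both fractions or both subsets from an additive model. The standard error of an edgeR fold change was derived as its absolute log2 value over the square root of the F statistic. Alternatives were DESeq2 1.42.0, limma 3.58.1 voom with library quality weights, RLE scaling, no filter, the compared libraries alone, the replicate number as a block, leaving out Rn45s and leaving out each library. All 10 members are named, with every gene of the other lists past the threshold and up to 3 more of smallest p per list averaging 5 CPM or more. Only some of these are described, and Cyr61, Fosl1 and Fosl2 were also chosen after their values were seen. Exon lengths and positions came from GENCODE M21 (GRCm38, the same build as mm10). Library totals were 17869441 to 22195681 counts. Reads carry no molecular identifiers, so counting intervals and the floor of 3 counts cover counting error only. The steps were tested on simulated data.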

Additional observations from a re-analysis of the deposited data

Results flagged for a closer look

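Jun stood apart in 1 library of each subset. Among the 4 cDC1 libraries EGFP-positive replicate 1 had 710 CPM, far from the others at 8.30 to 103 CPM, and among the 4 cDC2 libraries EGFP-positive replicate 2 had 204 CPM, against 71.2 to 87.8 CPM. Fos had 397 CPM in EGFP-positive cDC1 replicate 1, the lowest of the 4 EGFP-positive libraries, with the others at 1343 to 1479 CPM. In EGFP-negative cDC1 replicate 1, Jund had 55.9 CPM and Atf3 279 CPM, each above the other 3 EGFP-negative libraries at 34.8 to 37.7 CPM for Jund and 145 to 155 CPM for Atf3. These 5 came from 40 sets of 4 libraries searched. Chance marks about 1 in 20 groups of like libraries, but each set here joins 2 of the study's groups, so that rate need not hold, and Jund was picked for its pattern over these libraries.

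The EGFP fractions differed in opposite directions in the subsets for Jund and Dusp6, which were chosen for their pattern with EGFP. The log2 ratio of mean CPM in cDC1 minus that in cDC2 was -2.63 for Jund and 12.3 for Dusp6. These differences between the subsets were not tested.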

How the results depend on the processing

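Direction was followed only for members with an unadjusted p under 0.05 in the main fit and for the Jund and Dusp6 ratios, and none of these reversed. Other member effects, some near 0, were not checked for it. Among the log2 fold changes followed, 234 of 247 values under an alternative kept their side of the threshold and 13 newly passed it. Of 213 counts of calls and Jund or Dusp6 ratios under an alternative, 40 moved and 173 stayed the same or close. EdgeR called 0 of the 8 tested members in each contrast and 0 of the 10 over both fractions, with Jund and Dusp6 left out of the other contrasts because they were picked for their pattern. With DESeq2 it was 2 for EGFP in cDC1, 1 for cDC1 over cDC2 in each fraction and over both, 1 for EGFP over both subsets and 1 for the interaction, and with voom it was 2 for cDC1 over cDC2 over both fractions (Dusp1 and Dusp6). Leaving out 1 library gave 0 to 4 members for EGFP in cDC1 (4 without EGFP-positive cDC1 replicate 2), 0 to 2 between subsets in the EGFP-positive fraction and 0 to 1 for the interaction. All genes gained calls in the same fits: without replicate 1 and without replicate 2 of EGFP-positive cDC1, 6.15% and 8.41% were called for EGFP in cDC1, 6.83% and 10.2% between subsets in the EGFP-positive fraction and 4.15% and 5.35% for the interaction. Over the immediate early, ERK feedback and ERK cascade lists, edgeR called 0 genes for EGFP in cDC1, against 13 with DESeq2 and 0 to 10 without 1 library. Between subsets it called 0 in the EGFP-positive fraction (DESeq2 14, no filter 1, without 1 library 0 to 12), 0 in the EGFP-negative fraction (DESeq2 9, voom 5, compared libraries alone 2, no filter 1, without 1 library 0 to 5) and 2 over both (DESeq2 11, voom 10, without 1 library 0 to 6). For the interaction it called 0 (DESeq2 5, without 1 library 0 to 7). Where leaving out a library left 1 in its group, that one was assumed to vary like the others. The causes were not tested.

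Over all genes the edgeR counts were 0, 0, 26, 41, 150, 0 and 0 for EGFP in cDC1, EGFP in cDC2, the subsets in the EGFP-positive fraction, in the EGFP-negative fraction and over both, EGFP over both subsets and the interaction. In that order DESeq2 gave 1325, 110, 1586, 838, 1160, 184 and 714, voom 0, 2, 22, 528, 872, 4 and 1, and no filter 57, 0, 153, 112, 236, 0 and 29. The compared libraries alone gave 0 and 292 between subsets in the EGFP-positive and EGFP-negative fractions. RLE scaling moved the median of all genes between the subsets in the EGFP-positive fraction by over 0.1, to -0.20, against -0.30, and that of the interaction to -0.06, against -0.20. The log2 ratio of mean CPM without 1 library ran from -1.06 to -0.49 for Jund and from 10.26 to 11.77 for Dusp6 in cDC1, and from 1.36 to 2.18 for Jund and from -1.34 to -0.65 for Dusp6 in cDC2. Without EGFP-negative cDC1 replicate 1 no Dusp6 ratio could be had, since the remaining library had 0 counts.

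The groups share replicate numbers, but no label says what a number marks, and same-numbered libraries deviated from their group means with correlations of -0.22 to 0.04. Bracketed codes in the titles also have a part in common among same-numbered libraries of all groups. What that part stands for is not stated, and a source shared across groups was left out of the main fit. With the replicate number as a block, 0 members were called in every contrast and 2 genes of the wider lists over both fractions, while over all genes the calls fell to 0 and 3 between subsets in the EGFP-positive and EGFP-negative fractions and to 82 over both. The common dispersion of the 4-group model was 1.28.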
